A study of Mus musculus with 6 samples.

Results

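Immediate early genes are genes whose transcription begins within minutes of a stimulus, without the need for new protein. Growth factors, stretch, injury and the enzymatic dissociation of a tissue all switch them on, mostly through MAP kinases that act on factors already bound at their promoters, and their mRNAs decay fast. Many encode transcription factors that pass the signal on. In the kidney they are known for their rise in tubules after ischemia. Here 10 of them were described, chosen by symbol from the 28208 genes that the matrices of all kidneys shared. *Fos*, *Fosb*, *Jun* and *Junb* encode subunits of the AP-1 transcription factor, *Atf3* encodes a stress-induced factor that pairs with Jun proteins, and *Egr1* encodes a zinc finger factor. *Ier2* and *Ier5* encode immediate early response proteins, *Cyr61* (also called *Ccn1*) a secreted matrix protein, and *Rhob* a small GTPase.

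The cells came from 2 naive, 2 rejecting and 2 tolerized mouse kidneys, with 1 droplet library per kidney. Naive kidneys were untransplanted and came from male C57BL/6 (B6) mice aged 10 to 12 weeks. Rejecting and tolerized kidneys came from male or female BALB/c donors aged 6 to 7 weeks, with the sex of each donor not given. They were placed in B6 males whose own kidneys had been removed, and were taken on day 15. Rejecting kidneys had untreated recipients, and recipients of tolerized kidneys were given BALB/c splenocytes treated with the cross-linker ECDI by vein before and after the transplant. All kidneys were dissociated with the same enzyme kit, and leukocytes of donor and host were not separated. Strain, age, surgery, the file headers and the gene list all differed between naive and transplanted kidneys. A software version was named only in the headers of transplanted kidneys. The parts of these factors in a difference from naive cannot be told apart in cells of the donor. By flow cytometry of separate grafts taken at the same time, the study found nearly all myeloid cells to be the recipient's. Donor strain and age do not describe such cells. Surgery, file headers and gene list still differed for them, and their parts cannot be told apart. The comparison of tolerized with rejecting kidneys shares strain, day, gene list and file headers. Donor sex may differ in it, and between naive and transplanted kidneys as well. Nothing in the labels says how the kidneys of a group relate, so p values measure the spread between these kidneys only. The study describes 2 experiments, each with 1 kidney of every group, but the labels do not say that a replicate number marks an experiment.

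The matrices held between 34874702 and 96803926 unique molecular identifiers (UMIs, 1 per captured mRNA molecule) per kidney, and 45667 of 60181 barcodes were used as cells. The smallest UMI count of a cell used was 1342 to 1538 in the naive libraries and 500 to 503 in the transplanted ones. The naive libraries shared 56 cell barcodes, transplanted libraries shared 13 to 29 with each other, and a naive and a transplanted library shared at most 2. Clusters were named from marker genes, so each cell type named below stands for cells that are "-like" that type. Tubular cells numbered 6136 and 4974 (naive), 2723 and 1679 (rejecting) and 4445 and 3629 (tolerized). Endothelial cells numbered 269 and 233, 119 and 47, and 205 and 226 in the same order, and immune cells 159 and 282, 6422 and 5674, and 4218 and 2143. All 41 tubular markers were detected in the tubular cells of every kidney. Their summed level there was 38064 to 65315 CPM, and 284 to 7962 in endothelial and immune cells. A level below is given in CPM, the usual scaling of a gene's UMIs to the total UMIs of the summed cells of 1 kidney, after TMM scaling unless a marker or summed level is named. A fold change is a log2 value with its standard error (SE) from edgeR's quasi-likelihood test, adjusted to a false discovery rate (FDR) over all genes tested, and a gene passed at an FDR under 0.05.

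The promoters of the genes that passed in tubular cells of rejecting kidneys are shown because these 5 genes passed the test there. They are the 200 bases before the start site in RefSeq, build GRCm38.p6, which is the mm10 build of the counts. The windows were searched on both strands, over 250 bases, for the TATA box TATAAA, the cyclic AMP response element (CRE) TGACGTCA, its first 5 bases TGACG, the AP-1 site TGANTCA, the CCAAT box CCAAT, and the CArG box of serum response factor. Capitals mark matches. RefSeq windows were held for 8 of the 10 genes, and those of *Egr1* and *Ier2* are not shown.
Fosb promoter, minus strand, chr7:19310046-19310245: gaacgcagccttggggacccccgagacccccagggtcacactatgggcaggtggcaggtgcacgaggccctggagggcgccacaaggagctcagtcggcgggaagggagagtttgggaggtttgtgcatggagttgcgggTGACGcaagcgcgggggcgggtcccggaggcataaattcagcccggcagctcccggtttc
Jun promoter, minus strand, chr4:95052223-95052422: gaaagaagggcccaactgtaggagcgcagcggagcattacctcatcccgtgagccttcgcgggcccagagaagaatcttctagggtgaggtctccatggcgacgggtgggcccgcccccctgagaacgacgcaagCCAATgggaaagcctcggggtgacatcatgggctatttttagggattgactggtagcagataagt
Ier5 promoter, minus strand, chr1:155099637-155099836: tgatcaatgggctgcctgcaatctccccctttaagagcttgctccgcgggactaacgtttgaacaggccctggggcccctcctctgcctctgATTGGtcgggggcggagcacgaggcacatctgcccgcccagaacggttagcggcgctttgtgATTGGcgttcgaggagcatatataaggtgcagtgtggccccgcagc
Atf3 promoter, minus strand, chr1:191183334-191183533: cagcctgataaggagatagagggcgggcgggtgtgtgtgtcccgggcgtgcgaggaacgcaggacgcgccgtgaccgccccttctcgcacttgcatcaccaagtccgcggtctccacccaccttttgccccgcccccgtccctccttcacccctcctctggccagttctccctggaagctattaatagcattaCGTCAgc
Rhob promoter, minus strand, chr12:8500010-8500209: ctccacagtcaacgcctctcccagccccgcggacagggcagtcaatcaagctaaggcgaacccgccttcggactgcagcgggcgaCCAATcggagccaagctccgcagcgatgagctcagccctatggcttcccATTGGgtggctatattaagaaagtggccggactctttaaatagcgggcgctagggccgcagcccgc

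TGACG was found in 5 of the 8 windows (*Fos*, *Fosb*, *Junb*, *Atf3* and *Cyr61*), against 17.9% of 27025 mouse promoter windows of the same length. *Fos* held 2 copies, from 129 to 125 and from 66 to 62 bases before its start. CCAAT was found in 4 windows (*Jun*, *Junb*, *Ier5* and *Rhob*), against 34.5% of promoters, with 2 copies each in *Ier5* and *Rhob*. TATAAA was found in *Fos* and *Cyr61*, against 13% of promoters. The full CRE, the AP-1 site and the CArG box had no match in any of the 8 windows, and 1.6%, 6.9% and 1.4% of promoters held them. Bases farther upstream were not searched, so sites there would not be found. The windows of *Fosb* and *Atf3* overlapped annotated exons by 6 and 7 bases, and the *Atf3* window lies inside the longer annotated gene (chr1:191170296-191218039). The other 3 windows shown hold no base of an annotated exon.

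In tubular cells, *Fosb*, *Jun*, *Ier5*, *Atf3* and *Rhob* were higher in rejecting than in naive kidneys, with *Atf3* the most changed. These were 5 of the 10 genes, and 32.9% of all 13829 genes tested passed in either direction. Across the 10 genes the median log2 fold change was 0.94, against 0.02 over all genes tested. *Atf3* had a level of 31.0 and 25.5 CPM (naive), 345 and 254 CPM (rejecting) and 190 and 108 CPM (tolerized). The naive kidneys were the lowest and no groups overlapped. The log2 fold change of *Atf3* was 3.40 (SE 0.31, FDR 2.3e-04) for rejecting against naive and 2.40 (SE 0.30, FDR 0.0013) for tolerized against naive.

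*Rhob*, whose GTPase acts on endosomes and actin, had levels of 22.3 and 27.5 CPM (naive), 123 and 66.9 CPM (rejecting) and 64.8 and 36.3 CPM (tolerized). Its log2 fold change in rejecting kidneys was 1.94 (SE 0.36, FDR 0.0052). *Fosb* was measured at 72.6 and 68.8, 342 and 150, and 241 and 105 CPM in the same order of groups, and its log2 fold change in rejecting kidneys was 1.80 (SE 0.45, FDR 0.018). In both genes the kidneys of the rejecting and naive groups did not overlap, and the replicates of a transplanted group lay far apart. *Jun* was the most abundant member in tubular cells, with 578 and 391 CPM (naive), 1575 and 954 CPM (rejecting) and 1060 and 632 CPM (tolerized). Its log2 fold change in rejecting kidneys was 1.39 (SE 0.35, FDR 0.018). *Ier5*, which responds to heat and radiation, had levels of 20.2 and 22.0 CPM (naive), 65.5 and 57.3 CPM (rejecting) and 52.7 and 19.5 CPM (tolerized). Its log2 fold change in rejecting kidneys was 1.54 (SE 0.40, FDR 0.019), and the second tolerized kidney lay below the naive ones.

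The other members did not pass in tubular cells. *Fos* had levels of 461 and 314 CPM (naive), 529 and 560 CPM (rejecting) and 436 and 370 CPM (tolerized), with a log2 fold change of 0.49 (SE 0.23, FDR 0.13) for rejecting against naive. With all segments pooled, *Egr1* was nearly level across all kidneys, from 119 to 154 CPM, and so was *Ier2*, from 79.9 to 97.4 CPM. *Egr1* rose in proximal tubule cells, from 52.1 and 51.3 CPM (naive) to 101.6 and 102.5 (rejecting), and fell in collecting duct cells (below). Collecting duct cells gave 2032 of 3773 and 1796 of 2817 tubular *Egr1* UMIs in naive kidneys. In rejecting kidneys they gave 492 of 3012 and 646 of 2105. The part of segment makeup in the pooled tubular levels was not tested. *Junb* ranged from 114 to 211 CPM and *Cyr61* from 82.8 to 222 CPM, with the lowest kidney of each in the tolerized group. In tolerized against naive kidneys, 1 of the 10 genes passed (*Atf3*), where 23% of all genes did. The count for rejecting against naive fell below 5 without either naive kidney and without the first rejecting kidney. The number of all genes that passed fell as well in these fits, each with 1 kidney left in a group. That for tolerized against naive rose without either rejecting kidney, where more of all genes passed too. It also rose without either tolerized kidney, where fewer of all genes passed. Without the first tolerized kidney the members that passed went in both directions. With the replicate number as a block, 4 of the 10 passed for tolerized against naive, all higher, where 3507 of 13829 genes did.

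Between tolerized and rejecting kidneys no member passed in tubular cells, and each fitted fold change was below 0. The 10 log2 fold changes for tolerized against rejecting ran from -1.01 (*Atf3*, SE 0.29, FDR 0.32) to -0.15 (*Ier2*, SE 0.16, FDR 0.95), with a median of -0.54 against 0.01 over all genes. With edgeR, 0 of 10 genes passed and 0% of all genes did. An unadjusted p under 0.05 was found for 3 of the 10 and for 1213 of all 13829 genes. With DESeq2, 1 of the 10 passed, where 196 of 13829 genes did. Without a filter on low counts 4 of the 10 passed, where 649 of 19906 genes did. Each of these members was lower in tolerized kidneys. The kidneys of the 2 groups did not overlap for *Fos*, *Egr1*, *Ier2*, *Ier5*, *Atf3*, *Cyr61* and *Rhob*, and they did for *Fosb*, *Jun* and *Junb*. The 7 were lower in both tolerized kidneys, as were 16.5% of all genes tested.

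**Figure D1:**
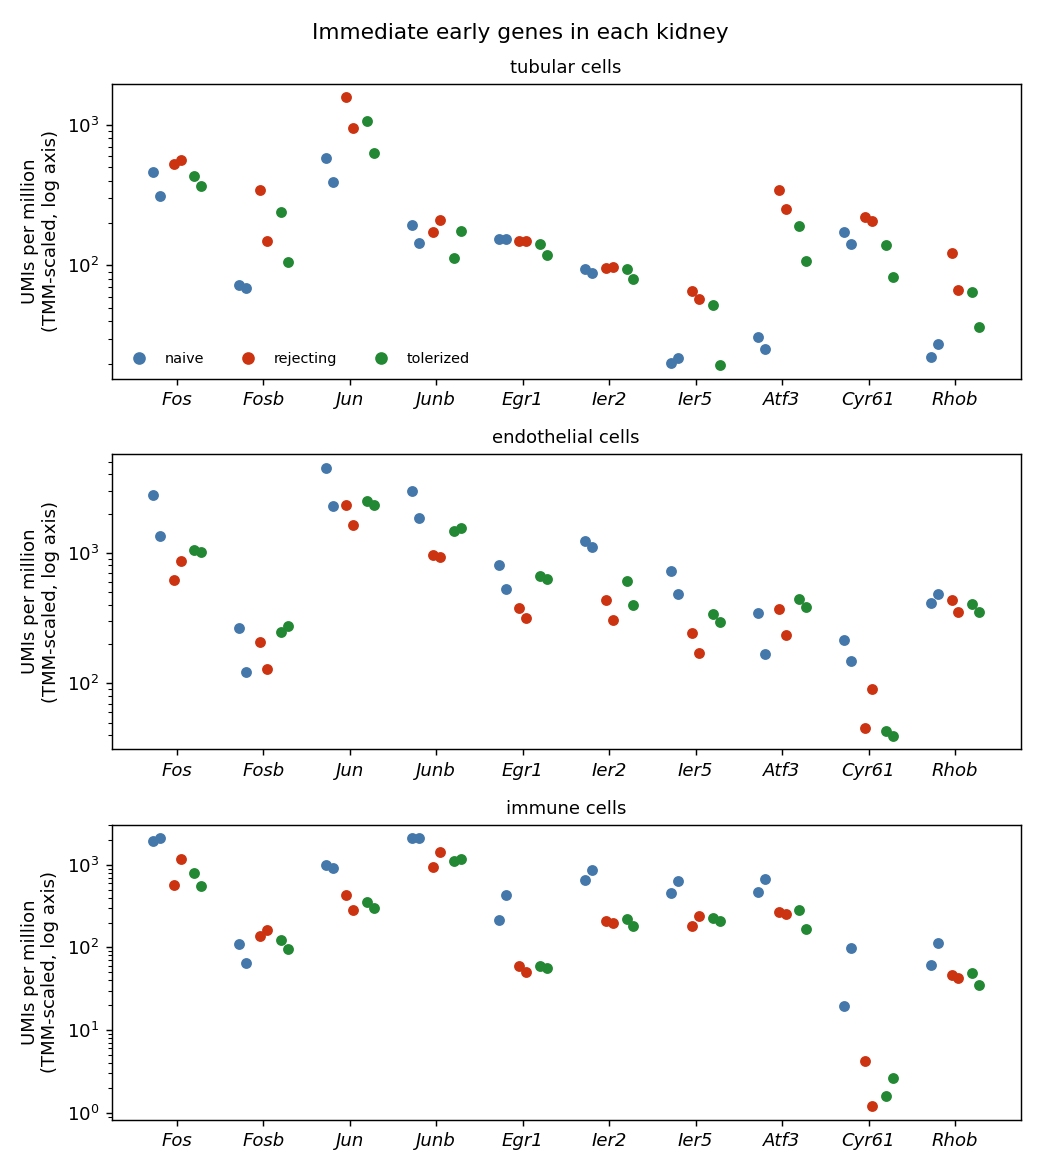
Level of each of the 10 genes in each kidney (points; CPM after TMM scaling, log axis) in tubular, endothelial and immune cells, with 2 kidneys per group, the dropped endothelial sum included. In tubular cells *Atf3* is at 25.5 to 31.0 in naive kidneys and 108 to 345 in transplanted ones, whereas in immune cells the naive kidneys are highest for each gene except *Fosb*.

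The segments of the nephron were also fitted one by one. In proximal tubule cells, which reabsorb most of the filtrate, 8 of 10 genes passed for rejecting against naive, all higher, where 42% of all genes passed. There, *Atf3* had levels of 9.02 and 8.63 CPM (naive), 348 and 257 CPM (rejecting) and 199 and 78.1 CPM (tolerized), a log2 fold change of 5.10 (SE 0.44, FDR 7.6e-05) for rejecting against naive. *Fos*, which did not pass over all tubular cells, had 225 and 167 CPM (naive), 523 and 496 CPM (rejecting) and 453 and 308 CPM (tolerized) in proximal tubule cells, with a log2 fold change of 1.38 (SE 0.23, FDR 0.0022). The members that did not pass were *Ier2* (FDR 0.13) and *Cyr61* (FDR 0.068). For tolerized against naive, 6 of 10 genes passed in proximal tubule cells, all higher, where 32.2% of all genes did. *Fos*, *Fosb*, *Junb*, *Egr1*, *Atf3* and *Rhob* were these 6. Different clusters held most proximal tubule cells of naive (clusters 1, 4, 12 and 19) and of transplanted kidneys (clusters 3, 6, 13, 18 and 22).

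In loop of Henle cells, which dilute the urine, 5 of 10 genes passed for rejecting against naive, all higher, where 17.6% of all genes did: *Jun*, *Ier2*, *Ier5*, *Atf3* and *Rhob*. Between tolerized and rejecting kidneys 3 of 10 members passed in this segment, where 0.558% of all genes passed. *Ier5* had levels of 40.5 and 37.3 CPM in rejecting and 9.94 and 15.7 in tolerized loop of Henle cells, a log2 fold change of -1.56 (FDR 0.019). *Rhob* was measured at 84.8 and 68.3 CPM in rejecting and 27.0 and 29.2 in tolerized cells (log2 fold change -1.44, FDR 0.012). *Atf3* was measured at 411 and 408 CPM in rejecting and 138 and 216 in tolerized cells (log2 fold change -1.21, FDR 0.029). In each of these 3 genes the tolerized cells were lower and the groups did not overlap. Of the 53 genes that passed among all genes, 52 were lower in tolerized cells. Median depth in this segment was 3472 and 3720 UMIs per cell (rejecting) and 5915 and 14493.5 (tolerized), and its part was not tested. For tolerized against naive, *Atf3* alone passed in this segment, where 11.9% of all genes did.

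In distal convoluted tubule cells, 4 of 10 genes passed for rejecting against naive (*Fosb*, *Jun*, *Atf3* and *Rhob*, all higher, against 23.7% of all genes), and 4 of 10 passed for tolerized against naive, where 17.2% of all genes did. These were the same 4 genes, again all higher. *Rhob* had levels of 2.59 and 1.92 CPM (naive), 32.8 and 14.3 CPM (rejecting) and 19.0 and 5.76 CPM (tolerized) there, with a log2 fold change of 3.33 (SE 0.70, FDR 0.0058) for rejecting against naive. Different clusters held these cells in part: cluster 5 held 613 and 580 of the naive cells, and cluster 23 held 4 and 1 naive cells and 118 to 291 per transplanted kidney. Cluster 23 had a median of 12686 UMIs per cell and summed members of 1751 CPM, against 3259 UMIs and 930 CPM in cluster 5. Cluster 26, with 563 tubular cells, had markers of the collecting duct and none of the distal convoluted tubule among its leading genes, and was placed in no segment. Collecting duct cells make the final adjustment of salt and water. For rejecting against naive, *Atf3* was higher there (log2 fold change 1.45, FDR 0.0089) and *Egr1* lower (log2 fold change -0.996, FDR 0.030), so 2 of 10 genes passed, where 17.5% of all genes did. *Egr1* had levels of 1019 and 1063 CPM (naive), 533 and 511 CPM (rejecting) and 319 and 596 CPM (tolerized) in collecting duct cells. This class pooled clusters 21 and 28, led by *Aqp2* and *Atp6v1g3*, in a mix that differed between groups. Cluster 21 held 204 and 241 naive, 34 and 45 rejecting, and 88 and 193 tolerized cells. Cluster 28 held 102 and 37, 47 and 37, and 43 and 72 in the same order. The part of this mix was not tested. For tolerized against naive, 4 of 10 genes passed, all lower (*Fos*, *Egr1*, *Cyr61* and *Rhob*), where 15.1% of all genes passed. *Atf3* was thus higher in rejecting than in naive kidneys in each of the 4 segments. The difference between segments was not tested.

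**Figure D2:**
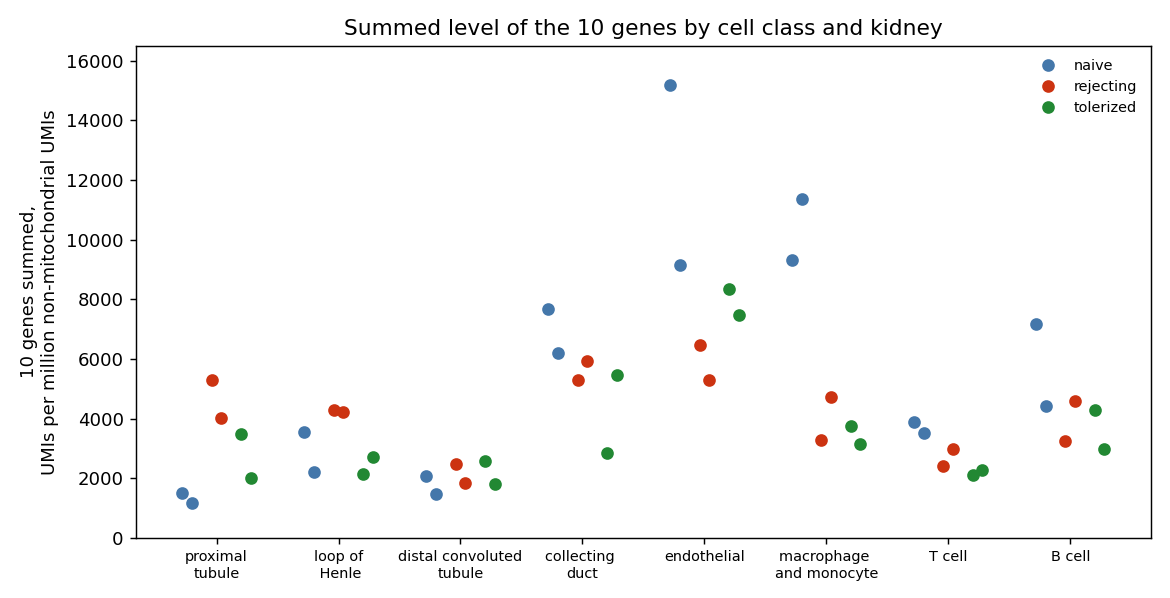
Summed level of the 10 genes (CPM of non-mitochondrial UMIs) in each kidney (points) for tubule segments, endothelial cells and immune lineages. Proximal tubule cells are at 1161 and 1513 in naive and 4010 and 5307 in rejecting kidneys, whereas macrophages and monocytes are at 9315 and 11358 in naive and 3140 to 4728 in transplanted kidneys; the naive T cells and B cells are few.

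Several measures moved with the tubular result. Immune markers (65 genes) summed to 58.3 and 82.2 CPM in naive tubular cells, 630 and 320 in rejecting, and 239 and 142 in tolerized ones, against 9143 to 17427 in immune cells themselves; 39 of the 65 were detected in the tubular cells of every kidney. Their part in the result was not tested. Mitochondrial UMIs made up 28% and 26.5% of tubular UMIs (naive), 18.8% and 20.8% (rejecting) and 17.3% and 26.2% (tolerized), and the part of this share in the result was not tested. Among tubular cells with at most 10% mitochondrial UMIs the summed members were at 2934 and 1097 CPM of non-mitochondrial UMIs (naive), 8621 and 7286 (rejecting) and 6120 and 3815 (tolerized). Between 10% and 20% they were at 3663 and 2612, 4908 and 4598, and 3073 and 4569 in the same order, and above 20% at 1408 and 1259, 2398 and 2001, and 1028 and 1132. Both rejecting kidneys lay above all others within each class of mitochondrial share. Between 10% and 20%, though, the second rejecting and second tolerized kidneys were nearly level. When only cells with at most 20% were used, 5 of 10 genes passed for rejecting against naive, all higher, where 4508 of 12710 genes did.

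Depth per cell also differed between groups in proximal tubule cells. Naive cells had a median of 3290 and 3366 UMIs, rejecting cells 5561 and 4382, and tolerized cells 7143 and 11563. Among cells with 500 to 2500 UMIs, the summed members were at 393 and 466 CPM of non-mitochondrial UMIs (naive), 2471 and 730 (rejecting) and 763 and 2630 (tolerized). No naive cell used had under 1342 UMIs, so depth was not matched between naive and transplanted kidneys in this class. Among cells with 2500 to 5000 UMIs they were at 1181 and 1141 (naive), 1901 and 1155 (rejecting) and 644 and 889 (tolerized), so the rejecting and naive kidneys overlapped. Among cells with 5000 to 10000 UMIs they were at 2486 and 1440 (naive), 4691 and 4332 (rejecting) and 820 and 779 (tolerized). Among deeper cells they were at 969 and 718 (naive), 6620 and 4986 (rejecting) and 4611 and 2181 (tolerized). Tolerized kidneys thus lay below the naive ones from 2500 to 10000 UMIs, and above them among the shallowest and the deepest cells. The part of depth in the result was not tested. *Atf3* taken alone was higher in rejecting than naive proximal tubule cells in each class of depth. Among cells with 2500 to 5000 UMIs it was at 6.5 and 7.2 CPM of non-mitochondrial UMIs in naive and 147 and 107 in rejecting kidneys. Among cells with at least 10000 UMIs it was at 6.8 and 3.4 (naive), 640 and 456 (rejecting) and 343 and 108 (tolerized).

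**Figure D3:**
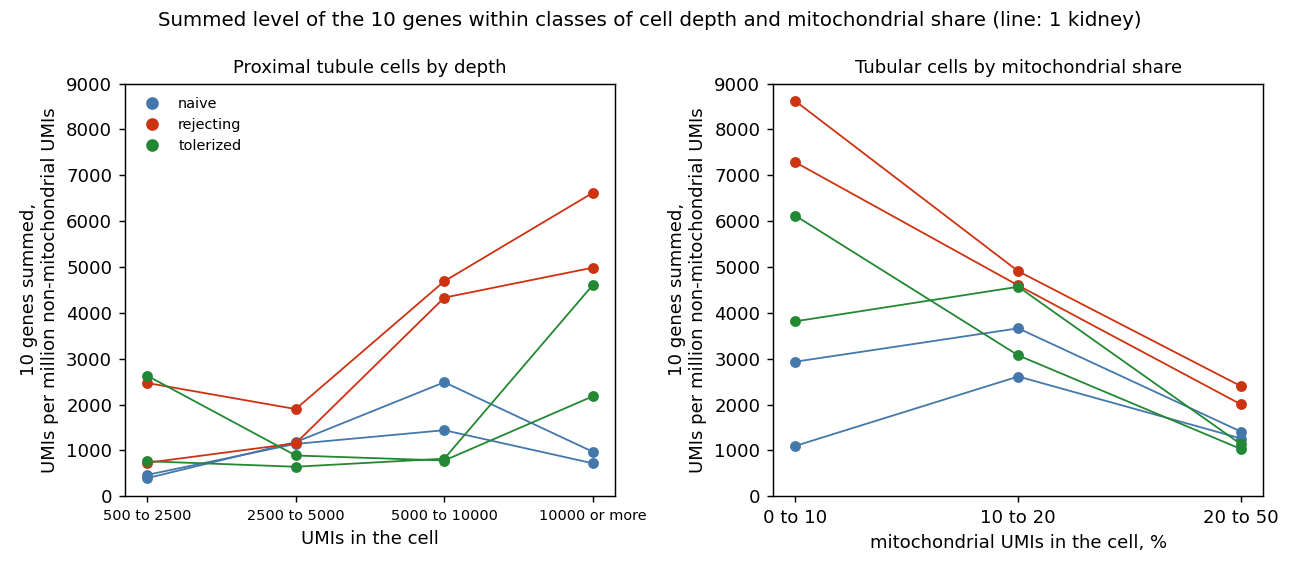
Summed level of the 10 genes (CPM of non-mitochondrial UMIs; each line is 1 kidney) in proximal tubule cells by UMIs per cell and in tubular cells by mitochondrial share. Rejecting kidneys reach 6620 and 4986 in the deepest proximal tubule cells against 969 and 718 in naive kidneys, and the levels lie closest together at 2500 to 5000 UMIs.

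The members were unevenly spread over single cells. With each cell thinned to 1000 UMIs, at least 5 of the 10 genes were detected in 1.1% and 0.8% of proximal tubule cells (naive), 10.7% and 7.5% (rejecting) and 6.5% and 3.7% (tolerized). Without thinning these shares were 8.6% and 7.8%, 28.1% and 15.6%, and 17.1% and 15.5%. No member at all was detected, after thinning, in 72.7% and 71.3%, 50.7% and 64.4%, and 71.0% and 73.1% of these cells. Cells too shallow to be thinned numbered 0 (naive), 47 and 88 (rejecting) and 90 and 19 (tolerized). In immune cells, at least 5 genes were detected after thinning in 19.5% and 22.0% of naive, 4.8% and 4.6% of rejecting, and 5.4% and 4.0% of tolerized cells.

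The 10 proximal tubule clusters fell into 2 ranges of member level, although the members and the other listed stress genes had been left out of the genes used for clustering. Clusters 1, 3, 4, 13 and 22 summed to 104 to 177 CPM, and clusters 6, 12, 18, 19 and 30 to 1366 to 6425 CPM. Naive and transplanted cells were split almost wholly between clusters. Clusters 1, 4, 12 and 19 held naive cells, clusters 3, 6, 13, 18 and 22 held transplanted cells, and cluster 30 held both. The libraries were clustered together here with no step to align them. The study integrated its samples and reported clusters of cell types conserved across the groups. The part of differences between libraries in the split was not tested. Low and high clusters occurred among naive and among transplanted cells. The high clusters were also deeper, with medians of 4723 to 17080.5 UMIs per cell against 2530.5 to 6536 in the low ones, and the median mitochondrial share of their cells was 12.0% to 25.1% against 16.9% to 26.5%.

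**Figure D4:**
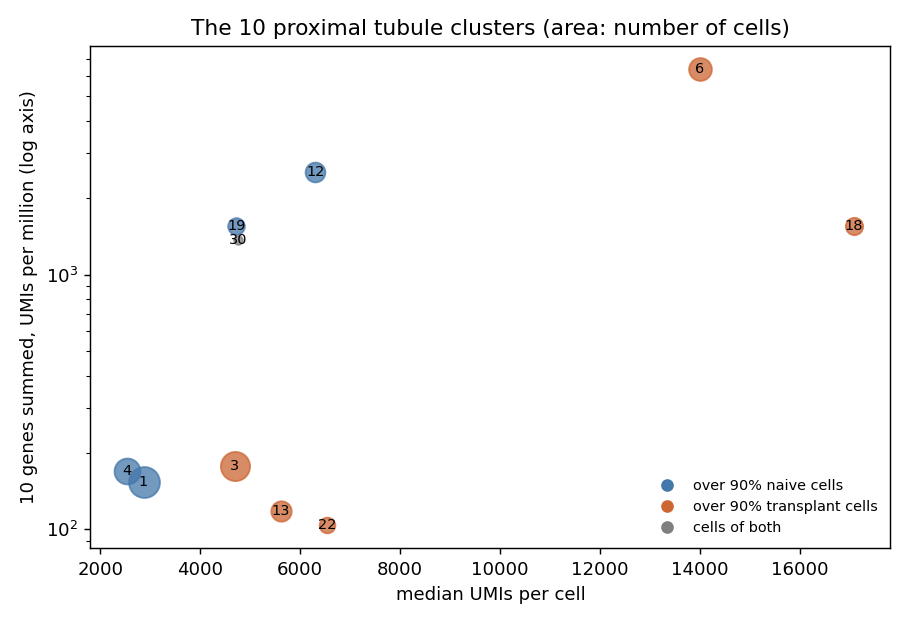
Each proximal tubule cluster by its median UMIs per cell and its summed level of the 10 genes (CPM, log axis), with area for the number of cells and color for the origin of most cells. Clusters 1, 3, 4, 13 and 22 lie at 104 to 177 and the others at 1366 to 6425, with cluster 6 the highest.

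In endothelial cells, the lining of vessels, the genes that passed were lower in transplanted than in naive kidneys. For rejecting against naive 5 of 10 genes passed, where 9.39% of all 9497 genes tested passed. The second rejecting kidney had 47 endothelial cells, under the minimum of 50, and was dropped from the fit, so the rejecting group was 1 kidney assumed to vary like the others. *Cyr61* had levels of 216 and 147 CPM (naive), 45.3 and 91.1 CPM (rejecting) and 43.4 and 39.8 CPM (tolerized). Its log2 fold change was -1.98 (SE 0.38, FDR 0.011) for rejecting and -2.10 (SE 0.28, FDR 0.0013) for tolerized against naive. *Ier2* was measured at 1233 and 1117 CPM (naive), 432 and 305 CPM (rejecting) and 612 and 401 CPM (tolerized), with log2 fold changes of -1.43 (SE 0.33, FDR 0.026) and -1.20 (SE 0.26, FDR 0.015). The second rejecting value of each gene is that of the dropped kidney, and neither gene overlapped between naive and transplanted kidneys.

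*Fos* had levels of 2766 and 1349 CPM (naive), 625 and 863 CPM (rejecting) and 1060 and 1013 CPM (tolerized) in endothelial cells, and a log2 fold change of -1.71 (SE 0.42, FDR 0.031) for rejecting against naive. *Junb* (2956 and 1836, 955 and 922, and 1462 and 1547 CPM) passed likewise, with -1.31 (SE 0.34, FDR 0.038). *Ier5* (730 and 487, 245 and 171, and 341 and 295 CPM) passed for both transplanted groups, with -1.30 (SE 0.34, FDR 0.040) for rejecting. The first naive kidney was the higher of its pair for each member except *Rhob*. *Jun* was the most abundant member, with 4498 and 2295 CPM (naive), 2342 and 1637 CPM (rejecting) and 2499 and 2310 CPM (tolerized), and the groups overlapped. *Atf3* was measured at 347 and 169 CPM (naive), 373 and 236 CPM (rejecting) and 440 and 387 CPM (tolerized). Its tolerized kidneys lay above all others, and its naive and rejecting kidneys overlapped. *Rhob* ranged from 353 to 484 CPM, and its rejecting kidneys overlapped both other groups. Neither gene passed against naive in endothelial cells, whereas both passed in tubular cells for rejecting against naive. For tolerized against naive, 3 of 10 genes passed (*Ier2*, *Ier5* and *Cyr61*, all lower), where 13.2% of all genes did. Between tolerized and rejecting kidneys 0 of 10 genes passed with edgeR, where 0.211% of all genes did, 1 had an unadjusted p under 0.05 (*Egr1*, higher in tolerized kidneys) and 0 passed with DESeq2. Both counts against naive fell without either naive kidney. The number of all genes that passed fell as well in these fits, each with 1 naive kidney left. With called doublets kept, the second rejecting kidney had 68 endothelial cells and entered the fit. There 3 of the 10 genes passed for rejecting against naive, where 2026 of 9520 genes did. With doublets removed and all 6 kidneys, 6 of the 10 passed, where 1362 of 8581 genes did. With the replicate number as a block, 6 passed for tolerized against naive, 5 lower and 1 higher, where 2149 of 9497 genes did.

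Tubular RNA was more abundant in the naive endothelial and immune cells than in the transplanted ones. Tubular markers summed to 5297 and 7821 CPM (naive), 1097 and 284 CPM (rejecting) and 990 and 3248 CPM (tolerized) in endothelial cells, and 5612 and 7962, 1296 and 570, and 1214 and 2648 in immune cells. The summed members of naive tubular cells, at 2166 and 1662 CPM of non-mitochondrial UMIs, lay below those of naive endothelial cells, at 15187 and 9154, and of naive immune cells, at 8150 and 8512. The part of tubular RNA in the endothelial and immune results was not tested. Median depth in endothelial cells was 2102 and 2497 UMIs in naive and 4489 to 6510 in transplanted kidneys.

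In immune cells, 8 of 10 genes passed for rejecting against naive and 7 of 10 for tolerized against naive, all lower in the transplanted kidneys, where 16.5% and 7.42% of all genes passed. *Egr1* had levels of 218 and 430 CPM (naive), 59.2 and 50.6 CPM (rejecting) and 59.6 and 56.4 CPM (tolerized) in immune cells, with a log2 fold change of -2.58 (SE 0.31, FDR 0.0020) for rejecting against naive. *Ier2* was measured at 658 and 862, 209 and 199, and 221 and 181 CPM (log2 fold change -1.90, SE 0.23, FDR 0.0020). *Jun* was measured at 986 and 902, 436 and 282, and 351 and 300 CPM (log2 fold change -1.40, SE 0.25, FDR 0.0078). In all 3 genes the naive kidneys lay above every transplanted kidney. *Atf3*, higher in transplanted tubular cells, was lower in transplanted immune cells, with 462 and 675 CPM (naive), 270 and 250 CPM (rejecting) and 283 and 166 CPM (tolerized), a log2 fold change of -1.13 (SE 0.29, FDR 0.032) for rejecting against naive.

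*Fos* had levels of 1953 and 2102 CPM (naive), 567 and 1162 CPM (rejecting) and 801 and 559 CPM (tolerized) in immune cells. *Junb*, the most abundant member in most immune sums, was measured at 2091 and 2102, 928 and 1431, and 1095 and 1161 CPM. *Ier5* was measured at 460 and 636, 180 and 243, and 227 and 209 CPM. These 3 genes passed for rejecting against naive, and *Junb* did not pass for tolerized against naive (FDR 0.052). *Cyr61* was scarce in immune cells, with 19.8 and 98.6 CPM in naive and 1.20 to 4.23 CPM in transplanted kidneys, and the naive levels lay below the 141 and 173 CPM of naive tubular cells. *Fosb* was the single member not lower in the transplanted kidneys in the fit, at 109 and 64.2, 137 and 161, and 123 and 95.3 CPM (FDR 0.083 for rejecting), and *Rhob* narrowly missed the threshold (FDR 0.053).

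The makeup of immune cells differed between groups, so macrophages and monocytes were fitted alone. Of 10 genes, 9 passed for rejecting against naive, with 8 lower and *Fosb* higher (log2 fold change 1.27, FDR 0.033), where 13.7% of all genes passed, and 8 passed for tolerized against naive, all lower, where 7.43% of all genes did. *Egr1* was measured at 213 and 659 CPM (naive), 31.0 and 33.3 CPM (rejecting) and 31.9 and 36.6 CPM (tolerized). These sums came from 79 and 145 naive cells. Different clusters held them in part: cluster 17 held 35 and 94 naive cells, and cluster 2 held 1 and 1 naive cells and 245 to 1177 per transplanted kidney. B cells did not show these calls. The first naive kidney had 28 of them and was dropped, so the naive group was 1 kidney with 78 cells. With edgeR 0 of 10 genes passed in B cells for rejecting and for tolerized against naive, where 2.03% and 0.27% of all genes did, and 1 had an unadjusted p under 0.05 in each. The median log2 fold change of the 10 genes was 0.50 and 0.34 there, against 0.30 and 0.27 over all genes, with 7 and 6 of the 10 above 0. Both naive kidneys had under 50 T cells, 33 and 41, so T cells were not fitted against naive. The difference between lineages was not tested. Within immune cells of 2500 to 5000 UMIs, the summed members were at 7810 and 9268 CPM of non-mitochondrial UMIs in naive kidneys. They were at 3329 to 3568 in transplanted ones, so the groups did not overlap in this range of depth. Lineage was not matched in it. Macrophages and monocytes were 39 of 55 and 92 of 118 naive cells there, 447 of 1421 and 398 of 1866 rejecting, and 232 of 1464 and 87 of 653 tolerized. In these lineages alone the second naive kidney was at 11038 and the transplanted ones at 2418 to 4443. The first naive kidney had too few such cells for a value. Between tolerized and rejecting kidneys, no member passed in immune cells with edgeR (0 of 10, where 0.00738% of all genes did), 0 had an unadjusted p under 0.05 and 0 passed with DESeq2. The 10 log2 fold changes ran from -0.45 (*Fosb*, SE 0.26) to 0.08 (*Egr1*, SE 0.29), and that of *Jun* was -0.14 (SE 0.24). The immune counts against naive kidneys also rested on few naive cells. Both counts fell without either naive kidney, and that for rejecting fell without the first rejecting kidney. The number of all genes that passed fell as well in these fits, each with 1 kidney left in a group.

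**Figure D5:**
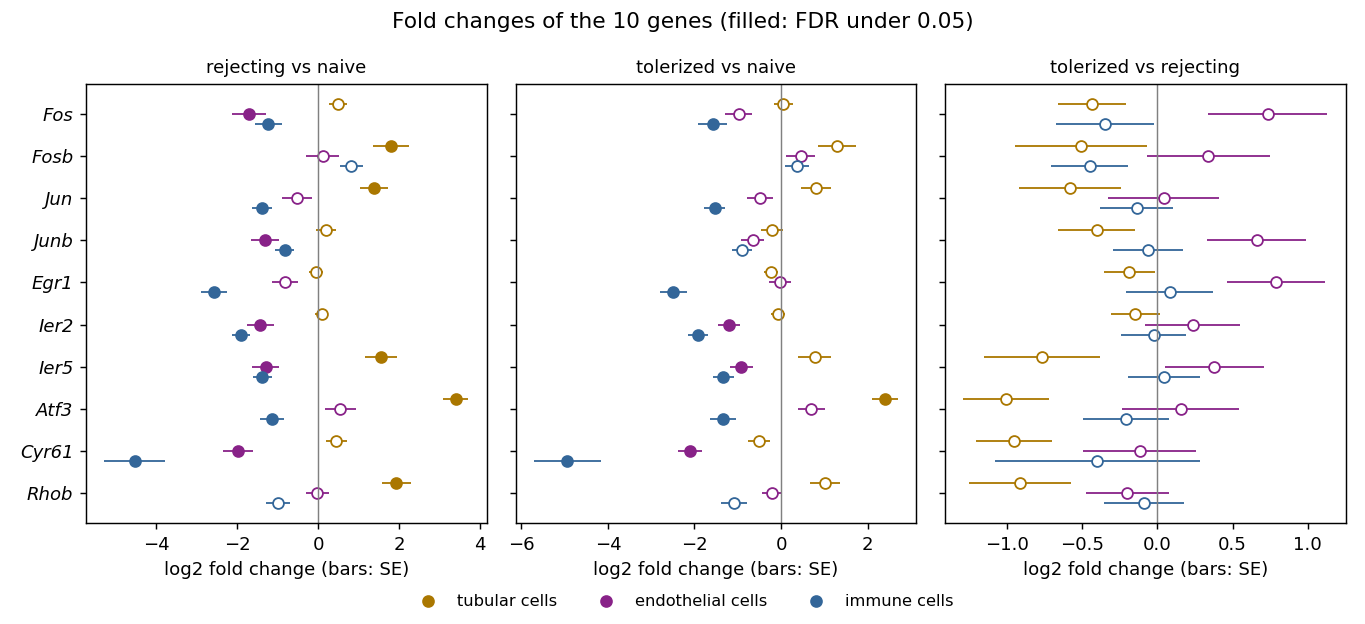
log2 fold change (points) with its SE (bars) for each of the 10 genes in tubular, endothelial and immune cells, with filled points for an FDR under 0.05. In rejecting against naive kidneys *Atf3* is at 3.40 in tubular and -1.13 in immune cells, and between tolerized and rejecting kidneys no point is filled.

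Fold changes were then compared between classes within the same kidneys. This tests whether fold changes differ, and not whether they go in opposite directions. For rejecting against naive, 1 of the 10 fitted log2 fold changes was below 0 in tubular cells, 8 in endothelial and 9 in immune cells. In endothelial cells those of *Fosb* and *Atf3* were above 0, as in tubular cells, and neither passed there. For rejecting against naive, the log2 fold change was lower in endothelial than in tubular cells in 9 of 10 genes, where 5.62% of all genes had a difference in either direction, and lower in immune than in tubular cells in 8 of 10 genes, where 5.54% did. Most of all genes that differed were lower in both tests as well, 702 of 845 in the immune one. The median difference over all genes was -0.27 (endothelial) and 0.11 (immune), against -2.29 and -2.68 over the 10 genes. Of the 10, *Atf3* had the largest difference between endothelial and tubular cells, -3.15 (SE 0.40). *Cyr61* had the largest between immune and tubular cells, -5.12 (SE 0.86, FDR 0.013 by the edgeR test). The *Cyr61* value rested on 8 and 66 UMIs of this gene in naive immune cells. The differences of *Jun* were -2.33 (SE 0.41, FDR 1.7e-06) and -2.85 (SE 0.27, FDR 7.3e-04). *Egr1* did not pass between endothelial and tubular cells (FDR 0.20), and *Fosb* (FDR 0.39) and *Junb* (FDR 0.052) did not between immune and tubular cells. In the endothelial fit each gene had 2 residual degrees of freedom and the spread shared over all genes weighed as 727 more, against 3 and 6.09 in the immune fit, so its very small FDR values rested almost wholly on the shared spread, and with DESeq2 7 genes passed. Without the first naive kidney, 5 genes differed between endothelial and tubular cells and 4 between immune and tubular cells, and without the second naive kidney 2 differed between immune and tubular cells.

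For tolerized against rejecting, the fold change was higher in endothelial than in tubular cells in 3 of 10 genes (*Fosb*, *Ier5* and *Atf3*), where 0.523% of all genes had a difference. These differences were 1.53 (SE 0.39, FDR 0.023), 1.49 (SE 0.38, FDR 0.025) and 1.51 (SE 0.38, FDR 0.021), and they rested on 1 rejecting kidney in the endothelial class. None of the 3 passed with DESeq2, when cells with over 20% mitochondrial UMIs were left out, or without either naive kidney or the second tolerized kidney, and 7 passed without the first tolerized kidney. For these alternatives, and for those above for rejecting against naive, the share of all genes that differed is not given. The counts of members in them thus cannot be set against it. In the main fit most of all genes that differed were also higher in endothelial cells. The median difference over all genes was 0.15, against 1.15 over the 10 genes. Between immune and tubular cells 0 of 10 genes passed with edgeR, where 0% of all genes did, and 0 passed with DESeq2. With edgeR an unadjusted p under 0.05 was found for 3 of the 10 and for 1056 of 15240 genes.

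Of the other immediate early genes, 39 were analysed here. In tubular cells of rejecting against naive kidneys, 12 of 37 tested were higher and 2 lower, where 32.9% of all genes passed, with a median log2 fold change of 0.45. *Ctgf*, a secreted relative of *Cyr61*, was measured at 2.68 and 2.57 CPM (naive) and 6.00 and 22.3 CPM (rejecting) (log2 fold change 2.41, FDR 0.017). *Arc* and *Dusp2* also rose, both at under 5 CPM in every kidney. In endothelial cells 0 of 33 were higher and 7 lower, where 9.39% of all genes passed, with a median of -0.66. In immune cells 4 of 39 were higher and 13 lower, where 16.5% of all genes passed. *Dusp1*, a phosphatase that switches MAP kinases off, was measured at 1127 and 1338 CPM (naive), 176 and 369 CPM (rejecting) and 405 and 289 CPM (tolerized) in immune cells (log2 fold change -2.18, FDR 0.0054 for rejecting). *Klf2*, a factor of quiescent lymphocytes and vessels, was measured at 1911 and 1132, 264 and 291, and 383 and 368 CPM (log2 fold change -2.45, FDR 0.0014). *Egr3* went the other way, from 0 and 1.49 CPM in naive to 10.2 and 12.6 in rejecting immune cells (FDR 0.014).

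Heat shock genes are a second class of transcripts that rise in cells under stress, including during dissociation. In tubular cells of rejecting against naive kidneys 5 of 16 were higher and 0 lower, a share no greater than the 32.9% of all genes, with a median log2 fold change of 0.52. *Hspb1*, a small chaperone of the cytoskeleton, was measured at 11.3 and 13.01 CPM (naive), 47.9 and 90.2 CPM (rejecting) and 40.4 and 9.98 CPM (tolerized) in tubular cells (log2 fold change 2.51, FDR 0.014). *Hspa1b*, an inducible Hsp70, was measured at 31.1 and 48.4 CPM (naive) and 78.8 and 101 CPM (rejecting) (log2 fold change 1.17, FDR 0.013). In immune cells 4 were higher and 2 lower (16.5% of all genes passed), and in endothelial cells 4 were higher and 2 lower (9.39% of all genes). *Hspa1a*, the other inducible Hsp70, was measured at 897 and 1119 CPM (naive), 161 and 187 CPM (rejecting) and 112 and 87.9 CPM (tolerized) in immune cells (log2 fold change -2.54, FDR 8.1e-04 for rejecting). In endothelial cells it was measured at 3070 and 2196, 766 and 1102, and 431 and 534 CPM. Other heat shock genes of endothelial cells went the other way: *Hsph1*, a chaperone cofactor, was measured at 26.0 and 22.7 CPM in naive and 196 in the fitted rejecting kidney (log2 fold change 3.02, FDR 7.8e-04), and *Hspa8*, the constitutive Hsp70, at 1137 and 1186 and at 3630 CPM (log2 fold change 1.66, FDR 0.0043). Some heat shock genes thus moved with the members and some against them, and the part of dissociation in the members' differences was not tested.

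Between tolerized and rejecting kidneys all 16 heat shock genes had a log2 fold change below 0 in tubular cells (median -0.57) and in immune cells (median -0.45). None passed there, and the medians over all genes were 0.006 and -0.004. All 16 were also below 0 in proximal tubule, collecting duct and T cells, and in each other class fitted 1 or 2 were above 0. In endothelial cells 1 of 16 passed (0.211% of all genes), *Hsph1*, at 196 CPM in the fitted rejecting kidney and 55.7 and 36.1 in tolerized ones (log2 fold change -2.08, FDR 0.036). The 20 upstream kinases and factors relay stimuli to these promoters. In proximal tubule cells of rejecting against naive kidneys 6 of the 20 were higher and 1 lower, where 42% of all genes passed. In tubular cells of rejecting against naive kidneys, where 32.9% of all genes passed, 2 were higher: *Nfkb1* (11.3 and 9.51 CPM in naive, 23.96 and 20.4 in rejecting, FDR 0.0048) and *Mapkapk2* (31.7 and 40.2, 56.8 and 52.9, FDR 0.031). In immune cells 1 of the 20 was higher and 2 were lower, where 16.5% of all genes passed. In endothelial cells *Wwtr1* was at 76.6 and 79.0 CPM in naive and 282 in the fitted rejecting kidney (log2 fold change 1.87).

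The genes whose pattern was most like the summed members, by Pearson r of log2 CPM over 57 sums of kidney and cell class, were *Btg2* (r = 0.81), *Sertad1* (r = 0.80), *Ppp1r15a* (r = 0.76), *Tmem88* (r = 0.76) and *Cebpg* (r = 0.76), out of 8655 genes compared. With the 4 sums of cluster 26 added, *Sertad1* and *Btg2* (both r = 0.82) were followed by *Klf6* (r = 0.77), *Plk2* (r = 0.76) and *Dusp1* (r = 0.75), so the places after *Btg2* and *Sertad1* depended on these sums. *Btg2* and *Ppp1r15a* are themselves in the list of other immediate early genes. The sums share libraries and tissue, and these values are a description only.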

How the data were processed

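Single-cell RNA-seq libraries were made from 6 mouse kidneys, 2 per group. The authors dissociated the tissue, lysed red cells and captured cells with the 10x droplet method, and the deposited matrices hold raw UMI counts per gene and barcode. The submitters' processing notes name Cell Ranger, bcl2fastq and mm10. The headers of the transplanted kidneys' matrices and those of the naive kidneys differ in gene list (31053 and 28692 genes), and the 28208 shared genes were used.

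A barcode was used if it held 500 UMIs and 250 genes or more and no more than 50% of its UMIs were mitochondrial. Doublet scores from Scrublet were ranked within each library, and the highest were removed at an assumed 0.8% per 1000 barcodes of the library; its own threshold marked 3 to 296 cells per library. Cells were clustered (scanpy 1.11.5, leidenalg 0.10.2, resolution 1.5) without the 10 genes, the other listed genes and mitochondrial and ribosomal genes, and clusters were named from marker lists. A cluster with more markers of another segment among its 10 leading genes than of its own was kept in its broad class only, a rule applied after seeing the data. Raw counts were summed per kidney and class where there were at least 50 cells, filtered with filterByExpr, scaled by TMM and tested with edgeR 4.0.16 (quasi-likelihood, all groups in 1 fit, Benjamini-Hochberg adjustment). Differences between classes were an interaction term with kidney as a block. The script was tested on simulated data with a set spread. The group test in tubular cells found 19% of genes changed by a log2 value of 1 and 84% of those changed by 2. The class difference test of tubular and immune cells found 0% and 27%. False calls numbered 5 and 1 among 13661 genes. A gene that did not pass may thus still differ. Alternatives were DESeq2 1.42.0, its size factors, no filter, the replicate number as a block, other limits on cells, a marker gate per cell, single segments or lineages, and each kidney left out.

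All 10 genes are named. From each other list the 3 genes with the greatest absolute log2 fold change among those that passed are eligible. The most similar genes were the 5 with the highest r among genes at a mean of at least 10 CPM. The members and lists were chosen with earlier results of these data known. Droplet counts include free RNA, and shares and levels carry counting error that falls with depth.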

Additional observations from a re-analysis of the deposited data

Results flagged for a closer look

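The fold change for rejecting against naive kidneys differed between endothelial and tubular cells in 9 genes, by the interaction test in edgeR. The differences (endothelial minus tubular, log2) were -2.25 for *Fos*, -2.24 for *Fosb*, -2.33 for *Jun*, -1.49 for *Junb*, -1.67 for *Ier2*, -3.07 for *Ier5*, -3.15 for *Atf3*, -2.64 for *Cyr61* and -2.50 for *Rhob*. Between immune and tubular cells it differed in 8 genes, by -1.89 for *Fos*, -2.85 for *Jun*, -2.51 for *Egr1*, -2.03 for *Ier2*, -2.97 for *Ier5*, -4.56 for *Atf3*, -5.12 for *Cyr61* and -2.86 for *Rhob*. *Cyr61* had only 8 and 66 UMIs in naive immune cells. For tolerized against rejecting kidneys, the fold change was higher in endothelial than in tubular cells by 1.53 for *Fosb*, 1.49 for *Ier5* and 1.51 for *Atf3*, with 1 rejecting kidney in the endothelial class.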

How the results depend on the processing

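Counts below are of the 10 genes that passed. Those with 1 kidney left out come from fits with 1 kidney in a group, and the share of all genes is not given beside them. The number of all genes that passed changed as well in most of these fits. Such member counts thus cannot be set against all genes. In tubular cells of rejecting against naive kidneys (5 genes), proximal tubule cells alone gave 8 and collecting duct cells alone 2, and leaving out 1 kidney gave 2 to 5. For tolerized against naive (1 gene), DESeq2 gave 3, no filter 5, the replicate block 4, cells with at most 20% mitochondrial UMIs 3, proximal tubule cells 6, distal convoluted tubule cells 4 (all higher) and collecting duct cells 4 (all lower), and leaving out 1 kidney gave 1 to 4. For tolerized against rejecting (0 genes), DESeq2 gave 1, no filter 4 and loop of Henle cells 3, and leaving out 1 kidney gave 0. In endothelial cells, rejecting against naive (5 genes) gave 3 with doublets kept, which also brought the second rejecting kidney into the fit, 5 with doublets kept and that kidney left out (added after seeing the data), and 0 to 5 with 1 kidney left out. Tolerized against naive (3 genes) gave 5 with no filter (4 lower, 1 higher), 6 with the replicate block (5 lower, 1 higher) and 1 to 3 with 1 kidney left out. In immune cells, B cells alone (added after seeing the data, with 1 naive kidney) gave 0 for rejecting (8 genes) and 0 for tolerized (7 genes) against naive, and leaving out 1 kidney gave 2 to 9 for rejecting and 0 to 8 for tolerized against naive. Class differences with 1 kidney left out numbered 5 to 10 (endothelial) and 2 to 10 (immune) for rejecting against naive, and 0 to 7 and 0 to 1 for tolerized against rejecting. The 3 endothelial differences for tolerized against rejecting were 0 with DESeq2 and 0 with at most 20% mitochondrial UMIs. The share of all genes with a class difference is not given for these alternatives. Over all genes in tubular cells, tolerized against naive gave 3653 of 13829 with DESeq2 and 4393 of 19906 with no filter. It gave 3507 of 13829 with the replicate block and 3247 of 12710 with at most 20% mitochondrial UMIs. Tolerized against rejecting gave 196 of 13829 with DESeq2 and 649 of 19906 with no filter. Over all genes in endothelial cells, tolerized against naive gave 2083 of 15655 with no filter and 2149 of 9497 with the replicate block. The cause of the changes in these counts was not tested.

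Signs turned only among genes that had not passed. With at most 20% mitochondrial UMIs, *Junb* (-0.14) and *Ier2* (-0.27) were below 0 in tubular cells for rejecting against naive, and *Egr1* (0.053) and *Ier2* (0.17) above 0 for tolerized against rejecting. With doublets kept, *Egr1* was at 0.037 in tubular cells for rejecting against naive, *Egr1* at 0.015 in endothelial cells for tolerized against naive (also 0.023 with no filter and 0.026 with doublets kept and the second rejecting kidney left out), and *Fos* at -0.023 in endothelial cells for tolerized against rejecting. In endothelial cells *Fosb* was at -0.044 with the replicate block and -0.18 with all 6 kidneys (an alternative added after seeing the data) for rejecting against naive, and *Cyr61* at 0.058 with the block and 0.021 with doublets kept and the second rejecting kidney left out for tolerized against rejecting.

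With 1 kidney left out, ranges crossed 0 in tubular cells for *Fos* (-0.18 to 0.36), *Junb* (-0.56 to 0.069), *Ier2* (-0.19 to 0.062) and *Ier5* (-0.11 to 1.33) for tolerized against naive and *Fosb* (-1.22 to 0.21) for tolerized against rejecting. In endothelial cells they did for *Fosb* (-0.36 to 0.77), *Jun* (-0.94 to 0.047) and *Rhob* (-0.12 to 0.073) for rejecting against naive, *Egr1* (-0.32 to 0.30), *Fosb* (-0.014 to 1.10) and *Jun* (-0.90 to 0.082) for tolerized against naive, and *Ier2* (-0.11 to 0.50) and *Jun* (-0.026 to 0.088) for tolerized against rejecting. In immune cells they did for *Fosb* (-0.007 to 0.79) for tolerized against naive, and for tolerized against rejecting for *Fos* (-0.77 to 0.28), *Jun* (-0.41 to 0.21), *Junb* (-0.34 to 0.29), *Egr1* (-0.018 to 0.20), *Ier2* (-0.19 to 0.13), *Ier5* (-0.15 to 0.28), *Atf3* (-0.66 to 0.14), *Cyr61* (-1.05 to 0.76) and *Rhob* (-0.36 to 0.14).

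The correlation of the deviations of kidneys with the same number was 0.29 between rejecting and tolerized kidneys in tubular cells, -0.07 and -0.12 between naive and these, and -0.08 to 0.08 in immune cells. Not every pair was over 0.1 and the labels tie no number to an experiment, so the main fits have no block, and whether the numbers pair the kidneys is not settled. T cells and B cells alone gave 0 for tolerized against rejecting. T cells were not fitted against naive, since both naive kidneys had under 50. A left-out kidney leaves its group with 1, which is assumed to vary like the others. Without either naive kidney, the number of all genes that passed against naive also fell in tubular, endothelial and immune cells. Few naive immune and endothelial cells limit the depth behind those sums.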
